A study of Mus musculus with 27 samples.

Results

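A list of 40 genes for DNA replication and mitosis was followed through the RNA data of a study of mouse hair follicle stem cells (HFSCs). The members were chosen by gene symbol. There were 19 genes of DNA replication and its preparation and 21 genes of mitosis, and all 40 were found among the 51906 gene symbols of the counts table and in the 4 single cell matrices. Bulk RNA-seq was made from HFSC cultures grown in 3D from wild-type mice or Rxra conditional knockout (cKO) mice, in medium with fetal bovine serum (FBS) or with all-trans retinoic acid and an inhibitor of protein kinase C (atRA+PKCi). Single cell RNA-seq was made from back skin in full anagen, the growth phase of the hair cycle, and from HFSC cultures pooled with hashtags, which are barcoded antibodies that mark the culture of origin.

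Wild-type and Rxra cKO cultures each came from 2 mice in telogen, the resting phase, at postnatal day 55, and each mouse gave 1 library per medium. By the study's methods, Rxra cKO cells carried Sox9-CreER, Rxra-fl/fl and Rosa26-YFP, so that loss of Rxra depends on a Cre recombinase that tamoxifen activates in Sox9-expressing cells. Cre was not stated for the wild-type cells, so the presence of CreER and the deletion cannot be told apart. All lines had been established on growth-arrested feeder cells. In the atRA+PKCi medium serum was also replaced by B-27, a supplement, so that a difference between media covers the change of serum, the retinoid and the kinase inhibitor together. By the study's methods the skin and the hashtag cultures came from the same 2 wild-type mice, at postnatal day 32. Skin cells had been sorted as CD45-, CD31-, CD140a- and CD117-, and cultured HFSCs as CD34+ followed by 2 passages. Among the hashtag cultures, those named FBS and B-27 lacked atRA+PKCi, whereas those named for R-spondin (Rspo), for BMP2 with BMP4 (BMP2/4), for both, and for both with an inhibitor of the retinoic acid receptor (RARi) held it.

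Cells copy their DNA in S phase and divide in mitosis, and the genes for these steps are switched on in waves. As cells pass from G1 into S phase, E2F factors are released from proteins of the RB family and activate genes for the replicative helicase (the MCM proteins, Cdc45 and Gins2), for its loading (Cdc6), for the sliding clamp (Pcna) and for nucleotide supply (Rrm1, Rrm2, Tyms). Later, the MuvB complex works with B-MYB (the product of Mybl2) and FOXM1 to activate genes of G2 and mitosis, among them cyclin B with Cdk1, kinesins, kinetochore proteins and the chromosomal passenger complex. In resting cells the same MuvB core joins RB family members and E2F factors in the DREAM complex, which holds both waves silent. In skin, HFSCs of the telogen bulge are mostly quiescent, and the matrix at the base of the anagen follicle is one of the fastest dividing tissues of the body.

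The promoters of the members differed in the short elements linked to these waves. RefSeq windows (GRCm38.p6) from 250 bases before to 50 bases after the start were found for 34 of 40 members, 16 of replication and 18 of mitosis. Both strands were searched for 4 E2F octamers (TTTCCCGC, TTTGGCGC, TTTCGCGC and TTTGCCGC), for the cell cycle homology region bound by MuvB (TTTGAA), for CCAAT, which NF-Y binds, and for AGGTCA, the half-site of nuclear receptors such as RAR and RXR. An E2F octamer was in 7 of 16 replication promoters (43.8%: Mcm3, Mcm5, Mcm6, Mcm7, Cdc6, Hells and Uhrf1), in 1 of 18 mitosis promoters (5.56%: Cdk1) and in 2.6% of the promoters of 27025 genes. TTTGAA was in 2 of 16 replication promoters (12.5%: Mcm2 and Cdc45), in 13 of 18 mitosis promoters (72.2%) and in 20.2% of all. CCAAT was in 62.5% of replication and 88.9% of mitosis promoters and in 41.1% of all. AGGTCA was in 3 replication promoters (18.8%: Mcm2, Pcna and Uhrf1), in 1 mitosis promoter (5.56%: Ccnb1) and in 18.1% of all. These matches are descriptions of letters and not of bound sites.

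Promoters of 3 members of each kind are shown, since the results below separate replication from mitosis genes. For replication they are Mcm3 (chr1:20820263-20820562, minus strand) and Mcm6 (chr1:128359656-128359955, minus strand), subunits of the helicase, and Cdc6 (chr11:98907901-98908200, plus strand), its loader, with E2F octamers in capitals. A match on the other strand is printed as its reverse complement, as in Cdc6 and the first run of Mcm3. The octamers on the 2 strands of Mcm6 overlap in the first run of capitals.
Mcm3: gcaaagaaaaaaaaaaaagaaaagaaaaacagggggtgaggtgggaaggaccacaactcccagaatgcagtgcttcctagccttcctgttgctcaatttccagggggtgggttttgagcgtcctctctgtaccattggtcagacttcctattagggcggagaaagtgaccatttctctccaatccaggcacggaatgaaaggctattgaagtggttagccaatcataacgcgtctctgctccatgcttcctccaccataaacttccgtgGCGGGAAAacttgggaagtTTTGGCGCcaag
Mcm6: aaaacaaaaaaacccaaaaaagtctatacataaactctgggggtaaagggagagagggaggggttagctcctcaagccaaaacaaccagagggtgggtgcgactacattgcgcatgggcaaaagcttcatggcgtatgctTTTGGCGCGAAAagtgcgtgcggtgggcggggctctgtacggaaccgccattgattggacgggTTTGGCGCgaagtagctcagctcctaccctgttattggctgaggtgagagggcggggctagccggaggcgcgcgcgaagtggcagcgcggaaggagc
Cdc6: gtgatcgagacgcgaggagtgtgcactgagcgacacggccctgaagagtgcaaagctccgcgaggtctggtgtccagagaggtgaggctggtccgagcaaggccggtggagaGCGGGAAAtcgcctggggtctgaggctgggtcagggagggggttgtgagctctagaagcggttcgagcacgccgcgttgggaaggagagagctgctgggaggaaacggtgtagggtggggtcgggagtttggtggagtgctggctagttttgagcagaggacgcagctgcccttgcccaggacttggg
For mitosis they are Ccnb2 (chr9:70421505-70421804, minus strand), a B-type cyclin, Plk1 (chr7:122159185-122159484, plus strand), a kinase of mitotic entry and exit, and Bub1b (chr2:118597961-118598260, plus strand), a checkpoint protein, with TTTGAA in capitals.
Ccnb2: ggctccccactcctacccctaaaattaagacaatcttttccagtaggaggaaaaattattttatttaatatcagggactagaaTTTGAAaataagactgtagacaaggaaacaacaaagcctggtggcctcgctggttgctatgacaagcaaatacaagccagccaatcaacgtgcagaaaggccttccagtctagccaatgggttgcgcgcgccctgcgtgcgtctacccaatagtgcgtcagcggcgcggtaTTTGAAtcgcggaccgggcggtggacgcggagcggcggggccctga
Plk1: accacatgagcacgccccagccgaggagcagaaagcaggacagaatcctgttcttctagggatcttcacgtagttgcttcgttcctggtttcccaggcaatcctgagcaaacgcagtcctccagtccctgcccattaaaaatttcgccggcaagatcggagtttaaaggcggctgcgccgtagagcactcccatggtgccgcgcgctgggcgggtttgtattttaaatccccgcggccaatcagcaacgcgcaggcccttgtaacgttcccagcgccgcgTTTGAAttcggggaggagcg
Bub1b: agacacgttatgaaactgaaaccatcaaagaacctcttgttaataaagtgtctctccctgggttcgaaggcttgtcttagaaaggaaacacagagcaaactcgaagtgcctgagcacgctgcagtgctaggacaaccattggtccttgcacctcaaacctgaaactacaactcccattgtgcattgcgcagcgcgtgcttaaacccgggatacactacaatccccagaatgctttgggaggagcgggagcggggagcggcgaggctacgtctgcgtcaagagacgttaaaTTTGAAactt
TTTGAA began 31 bases after the start in Plk1, 41 after it in Bub1b, and at -167 and 5 in Ccnb2. Over the mitosis list 18 matches lay between -179 and 41 bases from the start, with a median of -18.5, and the 12 matches of E2F octamers in replication promoters lay between -185 and 39, with a median of -108.

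The 8 bulk libraries held 25150265 to 35879777 estimated counts, and 15965 genes passed the filter on low counts, all 40 members among them. Levels are given as CPM, which are counts scaled to the normalized size of each library. Rxra stood in the libraries labelled Rxra cKO 0.49 below wild-type on the log2 scale in FBS (adjusted p = 0.00264, edgeR's quasi-likelihood test) and did not differ detectably in atRA+PKCi (0.01, adjusted p = 0.927). By the same test, Rxra within Rxra cKO was higher in atRA+PKCi than in FBS (0.60, adjusted p = 0.000871). Within wild-type it was not called between media (0.10, adjusted p = 0.397). The difference between these medium effects was called (0.51, adjusted p = 0.0216). The count per gene includes exons outside the floxed part, so it is a weak check of the label. The 6 outer root sheath markers summed to 15300 to 34500 CPM, most of it Krt5 and Krt14. The paper calls KRT14 a marker of epithelial skin progenitors in general, so this sum is not specific to the outer root sheath. Sox9, a transcription factor of that list, stood at 70.09 to 173 CPM, and Barx2 at 12.37 to 103.4 CPM. Cd34, which marks bulge HFSCs, stood at 0.385 to 2.91 CPM. The 7 bulge and upper follicle markers summed to 14 to 22.7 CPM in FBS and, nearly all of it Krt15, to 4590 and 4450 CPM in wild-type atRA+PKCi and 282 and 270 CPM in Rxra cKO atRA+PKCi. Markers of fibroblasts, immune cells and endothelium summed to at most 11.6 CPM in any library. Of the 4 companion layer markers, Krt6a, Krt6b and Krt16 made up nearly all of the sum, and Krt75 stood at no more than 3.98 CPM. The paper counts KRT6 among wound-induced markers, so the sum is not read as companion layer identity. Companion layer markers summed in wild-type to 26600 and 26400 CPM with FBS and 2110 and 2090 CPM with atRA+PKCi. In Rxra cKO they summed to 11400 and 12900 CPM and to 5180 and 4830 CPM. Suprabasal epidermis markers summed to 2080 and 2270, 82.1 and 87.7, 1050 and 1320, and 449 and 409 CPM in the same order. Immune markers were higher in Rxra cKO (5.93 to 7.94 CPM against 0.146 to 0.317 in wild-type) and adipocyte markers in FBS (157 to 412 CPM against 10 to 16.8 in atRA+PKCi), with 1 of 5 adipocyte genes past the filter. Markers of mural cells (16.9 and 17.2 CPM against at most 2.12 elsewhere) and of skeletal muscle (8.49 and 8.34 CPM against at most 1.39) were higher in the Rxra cKO atRA+PKCi libraries, and the part of these markers in the results was not tested. In bulk samples fewer dividing cells and less RNA per dividing cell cannot be told apart. With 2 mice per genotype, p-values measure the spread between these libraries.

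The summed level of the members was lowest in Rxra cKO HFSCs in atRA+PKCi. The 21 mitosis genes summed to 1332 and 1258 CPM in wild-type FBS, 1221 and 1160 CPM in wild-type atRA+PKCi, 1435 and 1315 CPM in Rxra cKO FBS, and 606.3 and 627.5 CPM in Rxra cKO atRA+PKCi. The 19 replication genes summed to 1050 and 1122 CPM, 969.6 and 964.9 CPM, 1188 and 1097 CPM, and 747.7 and 785.3 CPM in the same order. Both sums in Rxra cKO atRA+PKCi therefore lay below all other libraries, and the mitosis sum was further below them. The ratio of the mitosis to the replication sum was 0.811 and 0.799 there and 1.12 to 1.27 in the other 6 libraries.

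**Figure D1:**
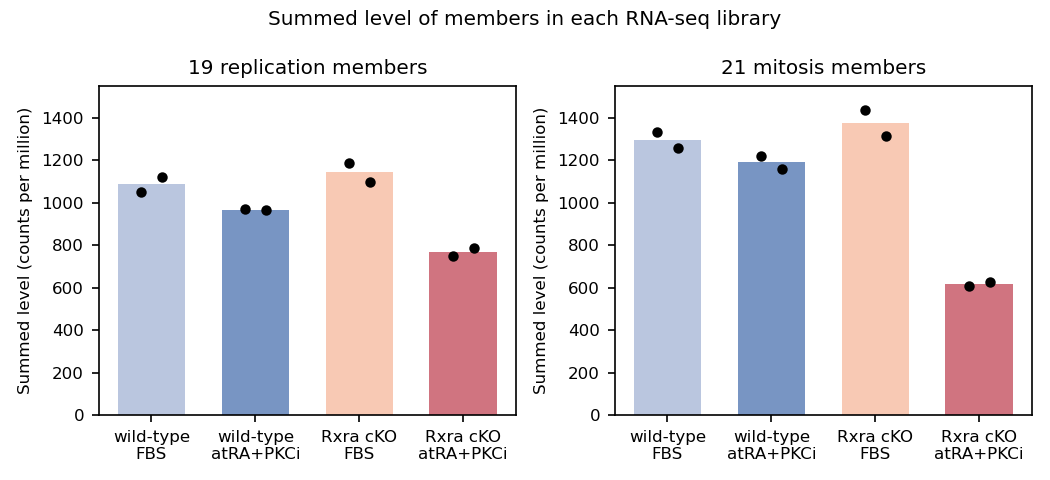
Summed CPM of the 19 replication and the 21 mitosis genes in each of the 8 bulk libraries, by genotype and medium, with one point per library and bars at the group mean. The Rxra cKO atRA+PKCi libraries sit at 747.7 and 785.3 CPM for replication and at 606.3 and 627.5 CPM for mitosis, below all other libraries.

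**Figure D2:**
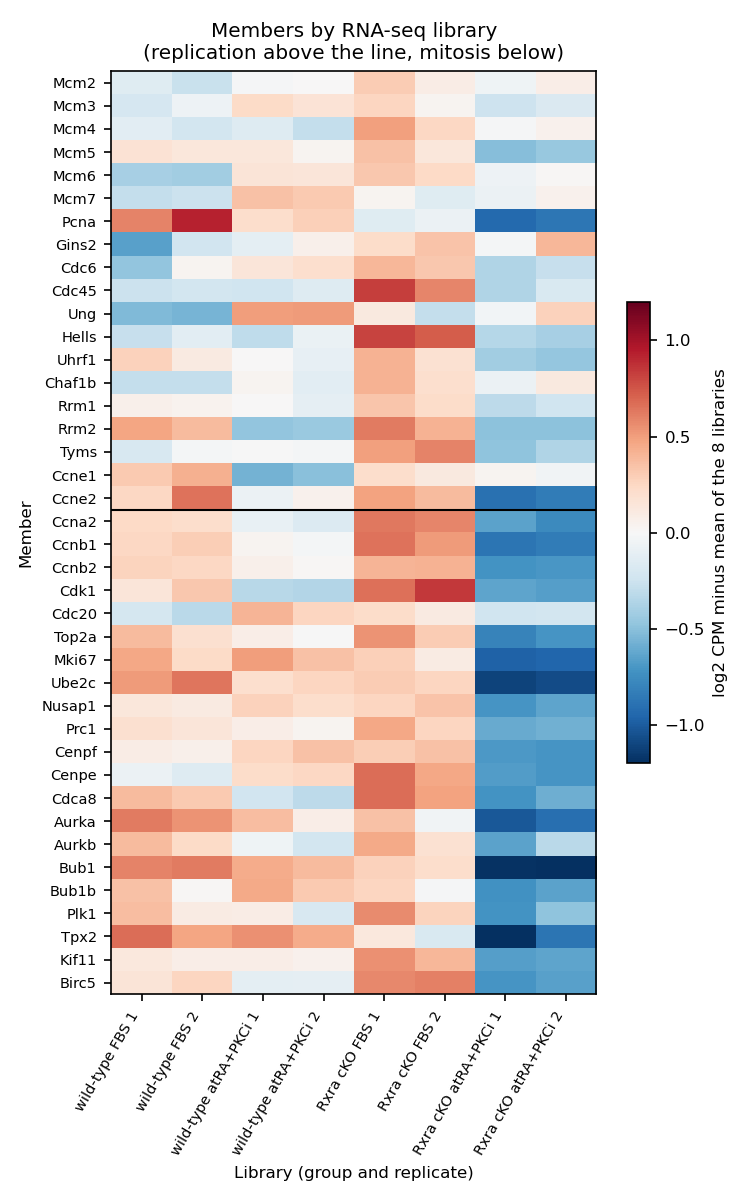
Level of each of the 40 members in the 8 bulk libraries, as log2 CPM relative to the mean over libraries, with one row per gene and one column per library. In both columns of Rxra cKO atRA+PKCi, every mitosis gene but Cdc20 is below all other columns, and so are Mcm5, Pcna, Hells, Uhrf1, Rrm1, Rrm2, Tyms and Ccne2 of replication.

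In wild-type HFSCs, the change from FBS to atRA+PKCi moved individual members in both directions. By edgeR's quasi-likelihood test, with p adjusted by the method of Benjamini and Hochberg and called under 0.05, 7 of 40 members were higher and 13 were lower, beside 27.2% and 26.6% of all tested genes. The median log2 fold change was -0.08 over members and 0.03 over all genes. The member shares were near the background, so the calls below describe single genes and not the list. Of the 19 replication genes, 4 rose (Mcm3, Mcm6, Mcm7 and Ung) and 4 fell (Pcna, Rrm2, Ccne1 and Ccne2). Of the 21 mitosis genes, 3 rose (Cdc20, Cenpf and Cenpe) and 9 fell, among them Cdk1, Cdca8, Ube2c and Birc5. The groups did not overlap for all 20 called members, nor for 12 of the 20 that were not called. Overlap was not counted over all tested genes, so this describes the libraries and is not a result about the members.

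Of the 7 rises in wild-type cells, 3 were MCM subunits of the helicase. Mcm7 went from 57.85 and 58.95 CPM in FBS to 89.55 and 87.76 CPM in atRA+PKCi, and Mcm6 from 45.92 and 45.43 CPM to 67.48 and 66.82 CPM. Mcm2, at 37.16 and 34.11 CPM against 40.7 and 41.31 CPM, did not pass the test (0.20, adjusted p = 0.0955), and neither did Mcm4 nor Mcm5, so the subunits of the same complex did not move by the same amount. Ung, the uracil-DNA glycosylase, stood at 4.307 and 4.211 CPM and at 8.788 and 8.839 CPM (log2 fold change 1.05, SE 0.174, adjusted p = 0.000982), the largest rise of the list. Cdc20, the activator of the anaphase-promoting complex, rose from 25.81 and 23.91 CPM to 39.61 and 35.8 CPM (0.60, SE 0.0833, adjusted p = 0.000337).

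Both E-type cyclins were among the 13 falls in wild-type cells. Ccne1, a cyclin that drives entry into S phase, fell from 35 and 37.94 CPM to 19.02 and 19.96 CPM (-0.90, SE 0.0796, adjusted p = 2.03e-05). Rrm2, the regulated subunit of ribonucleotide reductase, fell from 133.8 and 125 CPM to 69.18 and 70.74 CPM (-0.89), whereas its partner subunit Rrm1 did not pass the test (144 and 142.2 CPM against 138.1 and 127.8 CPM). Pcna went from 285.6 and 358.8 CPM to 219.5 and 230.3 CPM (-0.52, SE 0.103, adjusted p = 0.00271). Cdk1, the kinase that starts mitosis, fell from 77.71 and 88.12 CPM to 55.68 and 55 CPM (-0.58), and Cdca8, a subunit of the chromosomal passenger complex, by 0.62 on the log2 scale. Mki67, the usual marker of cycling cells, did not pass the test (208.1 and 176.9 CPM against 213.4 and 193.3 CPM), nor did Top2a, which untangles DNA (208.3 and 183.3 CPM against 169.4 and 159.9 CPM).

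Of the 20 calls in wild-type cells, 13 held when each library was left out in turn. The calls of Bub1, Ccnb2, Aurkb, Mcm3, Ccne2, Cenpf and Ccnb1 did not. Calls were lost without wild-type FBS replicate 1 for Mcm3 (0.25), Ccnb2 (-0.21), Aurkb (-0.37) and Bub1 (-0.22), without wild-type FBS replicate 2 for Ccne2 (-0.26), Cenpf (0.21) and Bub1 (-0.19), and without wild-type atRA+PKCi replicate 1 for Mcm3 (0.27), Ccne2 (-0.44) and Bub1 (-0.25). They were also lost without wild-type atRA+PKCi replicate 2 for Ccnb1 (-0.25), Ccnb2 (-0.20), Cenpf (0.18), Aurkb (-0.36) and Bub1 (-0.17), without Rxra cKO FBS replicate 2 for Bub1 (-0.20), without Rxra cKO atRA+PKCi replicate 1 for Cenpf (0.21) and without Rxra cKO atRA+PKCi replicate 2 for Bub1 (-0.20). With the mouse as a replicate block, Bub1 lost its call (-0.20) and Gins2 (0.41), Uhrf1 (-0.24) and Aurka (-0.35) gained one.

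In Rxra cKO HFSCs the same change of medium lowered most of the list. All 21 mitosis genes and 13 of 19 replication genes were lower in atRA+PKCi, beside 22.2% of all tested genes, and 0 members were higher, beside 20.8%. The 6 members that did not pass the test were Mcm2, Mcm7, Gins2, Ung, Chaf1b and Ccne1. The median log2 fold change was -1.13 over mitosis genes, -0.55 over replication genes and 0.02 over all tested genes. The groups did not overlap for all 34 called members, nor for 3 of the 6 that were not called. Here too the share over all tested genes was not counted, so these counts are a description only.

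Kinetochore, cyclin and kinase genes were among the members that fell furthest. Bub1, a kinase of the spindle checkpoint, went from 44.16 and 42.14 CPM in FBS to 16.03 and 14.3 CPM in atRA+PKCi (-1.50, SE 0.0794, adjusted p = 2e-06). Ccnb1, the main mitotic cyclin, went from 76.31 and 69.44 CPM to 26.5 and 27.16 CPM (-1.44, SE 0.0723, adjusted p = 1.52e-06). Its kinase Cdk1 went from 110.8 and 126.1 CPM to 45.36 and 44.48 CPM (-1.40). Both groups were well apart for each of these genes. Ube2c, the ubiquitin-conjugating enzyme of the anaphase-promoting complex, went from 83.83 and 81.42 CPM to 31.48 and 32.37 CPM (-1.37), and Mki67 from 184.1 and 161.9 CPM to 77.08 and 78.3 CPM (-1.15). Cdc20 had the smallest fall of the mitosis genes (34.78 and 32.29 CPM to 25.35 and 25.59 CPM, -0.40, SE 0.083, adjusted p = 0.0049).

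Replication genes fell by different amounts in Rxra cKO. Ccne2, the other E-type cyclin, went from 16.29 and 15.19 CPM to 6.259 and 6.519 CPM (-1.30). Hells, a chromatin remodeler of dividing cells, went from 91.81 and 86.86 CPM to 41.22 and 39.67 CPM (-1.14, SE 0.0902, adjusted p = 1.96e-05). Rrm2 fell by 1.01 on the log2 scale and Tyms, the thymidylate synthase, by 0.97. Cdc45, which joins the helicase at origins, went from 18.56 and 15.64 CPM to 8.093 and 9.201 CPM (-0.99, SE 0.121, adjusted p = 0.000259). The MCM subunits spanned 0.04 for Mcm7, which did not pass the test, to -0.73 for Mcm5. The order of these falls was not tested.

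The mitosis promoters with and without TTTGAA had like changes in Rxra cKO, with a median log2 fold change of -1.13 over 13 genes and -1.27 over 5. Of the 34 calls, 29 held when each library was left out in turn. Calls were lost without Rxra cKO FBS replicate 1 for Mcm3 (-0.22), Mcm4 (-0.20), Mcm6 (-0.23) and Cdc6 (-0.61), and without Rxra cKO FBS replicate 2 for Cdc6 (-0.71). They were also lost without Rxra cKO atRA+PKCi replicate 1 for Mcm3 (-0.30), Mcm4 (-0.30), Mcm6 (-0.24), Cdc6 (-0.61) and Cdc20 (-0.37), and without Rxra cKO atRA+PKCi replicate 2 for Mcm4 (-0.39) and Cdc6 (-0.72).

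In FBS, Rxra cKO cells had higher levels of many replication genes than wild-type cells. Of the 19 replication genes, 12 were higher and 1 (Pcna) was lower. Of the 21 mitosis genes, 8 were higher and 4 (Ube2c, Aurka, Bub1 and Tpx2) were lower. Over all 40 members this was 20 higher, beside 22.3% of all tested genes, and 5 lower, beside 20.5%. The median log2 fold change was 0.41 over replication genes, 0.18 over mitosis genes and 0.02 over all tested genes.

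Hells stood at 43.36 and 47.94 CPM in wild-type and 91.81 and 86.86 CPM in Rxra cKO (0.97, SE 0.0901, adjusted p = 5.72e-05), and Cdc45 at 8.687 and 8.924 CPM and 18.56 and 15.64 CPM (0.96, SE 0.122, adjusted p = 0.000334). Mcm6 was higher by 0.69 and Tyms by 0.65 on the log2 scale. Cenpe, the kinesin that carries chromosomes to the spindle equator, had the largest rise of the mitosis genes (43.11 and 40.56 CPM to 71.89 and 62.61 CPM, 0.68). Pcna went the other way, from 285.6 and 358.8 CPM to 171.1 and 180.9 CPM (-0.87, SE 0.104, adjusted p = 0.000232), and so did Tpx2, which activates Aurka at the spindle (109.5 and 95.61 CPM to 74.98 and 60.4 CPM, -0.60). Mki67 and Top2a did not pass the test in FBS (-0.15, adjusted p = 0.247, and 0.14, adjusted p = 0.29).

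Of the 25 calls between genotypes in FBS, 15 held when each library was left out in turn. Calls were lost without wild-type FBS replicate 1 for Mcm3 (0.21), Mcm7 (0.21), Gins2 (0.51), Cdc6 (0.33), Rrm1 (0.23) and Aurka (-0.37), and without wild-type FBS replicate 2 for Mcm7 (0.23), Rrm1 (0.21) and Aurka (-0.46). They were lost without Rxra cKO FBS replicate 1 for Mcm2 (0.29), Mcm3 (0.15), Mcm7 (0.11), Cdc6 (0.51), Rrm1 (0.15) and Ccnb1 (0.22), and without Rxra cKO FBS replicate 2 for Gins2 (0.65), Cdc6 (0.59), Cenpf (0.22), Aurka (-0.23) and Tpx2 (-0.45). Leaving out an atRA+PKCi library, which changes the shared estimate of the spread, also cost calls of 5 of these genes. They were lost without wild-type atRA+PKCi replicate 1 for Mcm3 (0.26), Mcm7 (0.21), Cdc6 (0.55) and Rrm1 (0.21), without wild-type atRA+PKCi replicate 2 for Mcm3 (0.27) and Mcm7 (0.22), without Rxra cKO atRA+PKCi replicate 1 for Mcm3 (0.26), Mcm7 (0.21), Cdc6 (0.54), Rrm1 (0.21) and Aurka (-0.43), and without Rxra cKO atRA+PKCi replicate 2 for Mcm3 (0.28), Mcm7 (0.22), Cdc6 (0.56), Rrm1 (0.22) and Aurka (-0.41). With the replicate block the calls of Mcm3 (0.27) and Mcm7 (0.22) were lost.

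In atRA+PKCi, Rxra cKO cells had lower levels of nearly all mitosis genes than wild-type cells. Of 21 mitosis genes, 20 were lower and Aurkb did not pass the test (-0.35, adjusted p = 0.0779). Of 19 replication genes, 8 were lower and Ccne1 was higher. Over the list this was 28 lower, beside 20.2% of all tested genes, and 1 higher, beside 23.0%. The median log2 fold change was -0.80 over mitosis genes, -0.23 over replication genes and 0.00 over all tested genes.

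Bub1 stood at 49.65 and 47.46 CPM in wild-type and 16.03 and 14.3 CPM in Rxra cKO (-1.67, SE 0.0792, adjusted p = 1.02e-06). Tpx2 stood at 100.1 and 93.24 CPM and 29.86 and 37.4 CPM (-1.53), and Mki67 at 213.4 and 193.3 CPM and 77.08 and 78.3 CPM (-1.39, SE 0.101, adjusted p = 1.16e-05). The wild-type and Rxra cKO values of these 3 genes did not overlap. The same held for 7 of the 11 members not called here, and the share over all tested genes was not counted. This is a description only. Ube2c (-1.32) and Aurka, a kinase of the spindle poles (-1.19), were also lower. Pcna was the replication gene with the largest difference (219.5 and 230.3 CPM against 99.47 and 104.2 CPM, -1.14). Ccne1 was at 19.02 and 19.96 CPM in wild-type and 28.89 and 27.42 CPM in Rxra cKO (0.53, SE 0.0796, adjusted p = 0.000757). Hells, Rrm2, Mcm2 and Cdc45 did not pass the test in this medium (-0.19, -0.03, 0.02 and -0.08, with adjusted p of 0.132 to 0.885).

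Of these 29 calls, 21 held when each library was left out in turn. Calls were lost without wild-type atRA+PKCi replicate 1 for Mcm3 (-0.34), Mcm7 (-0.30), Uhrf1 (-0.31), Rrm1 (-0.14), Cdk1 (-0.26), Cdca8 (-0.31) and Plk1 (-0.37), without wild-type atRA+PKCi replicate 2 for Cdk1 (-0.31), and without Rxra cKO FBS replicate 1 for Rrm1 (-0.20). They were also lost without Rxra cKO atRA+PKCi replicate 1 for Mcm3 (-0.34), Mcm7 (-0.26), Uhrf1 (-0.38), Rrm1 (-0.16), Tyms (-0.32), Cdk1 (-0.29), Cdca8 (-0.29) and Plk1 (-0.41), and without Rxra cKO atRA+PKCi replicate 2 for Uhrf1 (-0.37), Rrm1 (-0.26) and Cdk1 (-0.28).

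The medium effect differed between genotypes for most members. The interaction term, which is the log2 effect of atRA+PKCi in Rxra cKO minus that in wild-type, was negative and called for 13 of 19 replication and 20 of 21 mitosis genes, beside 11.3% of all tested genes. It was positive and called for Ccne1 only, beside 13.3% of all tested genes. The median was -0.56 over replication genes, -0.96 over mitosis genes and -0.01 over all tested genes. The 6 members whose interaction did not pass the test were Rrm2 (-0.13), Pcna (-0.27), Mcm4 (-0.31), Aurkb (-0.36), Mcm2 (-0.39) and Gins2 (-0.49), with adjusted p from 0.0581 for Mcm2 to 0.458 for Rrm2.

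Cenpe had the largest interaction of the list. It stood at 43.11 and 40.56 CPM in wild-type FBS and 52.89 and 53.7 CPM in wild-type atRA+PKCi, and at 71.89 and 62.61 CPM in Rxra cKO FBS and 28.49 and 27.68 CPM in Rxra cKO atRA+PKCi (-1.61, SE 0.116, adjusted p = 3.51e-05). It thus rose with atRA+PKCi in wild-type and fell in Rxra cKO. The same was true of Cenpf, another kinetochore protein (interaction -1.25), of Cdc20 (-1.0) and of the helicase subunits Mcm3 (-0.69) and Mcm6 (-0.86). With Cenpe these were the 5 members called in opposite directions in the genotypes. Only Cenpe kept both calls when each library was left out in turn. A call was then lost for Mcm3 in both genotypes, for Cenpf in wild-type and for Mcm6 and Cdc20 in Rxra cKO. Cenpf went from 41.32 and 40.41 CPM to 46.25 and 49.42 CPM in wild-type and from 47.54 and 49.36 CPM to 24.02 and 23.65 CPM in Rxra cKO.

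Another 17 members were called only in Rxra cKO, where they were lower. They were Mcm4, Mcm5, Cdc6, Cdc45, Hells, Uhrf1, Rrm1 and Tyms of replication, and Top2a, Mki67, Nusap1, Prc1, Aurka, Bub1b, Plk1, Tpx2 and Kif11 of mitosis. The interaction was called for all of them but Mcm4. A further 12 members fell in both genotypes, namely Pcna, Rrm2 and Ccne2 of replication and Ccna2, Ccnb1, Ccnb2, Cdk1, Ube2c, Cdca8, Aurkb, Bub1 and Birc5 of mitosis, and the interaction was called for 9 of them, with Pcna, Rrm2 and Aurkb as exceptions. Rrm2 fell to much the same level in both genotypes, to 69.18 and 70.74 CPM in wild-type and 68.49 and 68.32 CPM in Rxra cKO. Ccne1 was the member with the opposite pattern, since it fell in wild-type and stood at 32.51 and 30.61 CPM in Rxra cKO FBS and 28.89 and 27.42 CPM in Rxra cKO atRA+PKCi (interaction 0.74, SE 0.111, adjusted p = 0.00178).

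**Figure D3:**
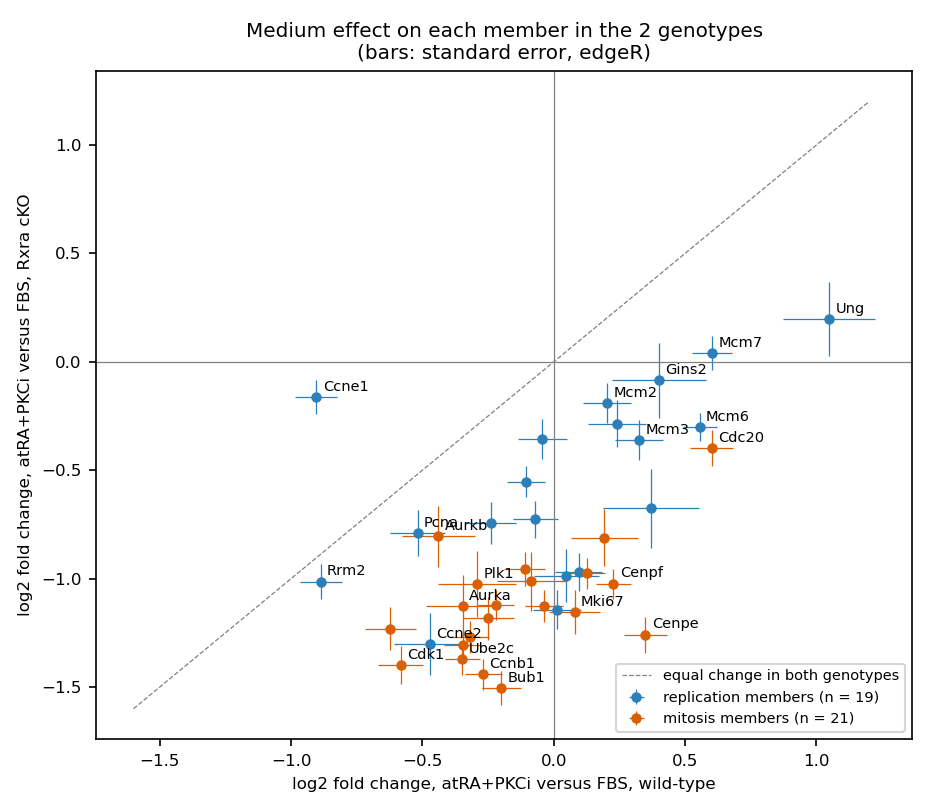
Log2 fold change of each member between atRA+PKCi and FBS in Rxra cKO (vertical axis) against that in wild-type (horizontal axis), with bars of 1 SE and colour by list. All but 2 members lie below zero on the vertical axis, the mitosis genes around -1.13 and the replication genes around -0.55, while on the horizontal axis the members spread from -0.90 for Ccne1 to 1.05 for Ung.

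Of the 34 calls of the interaction, 24 held when each library was left out in turn. Calls were lost without wild-type FBS replicate 1 for Ung (-0.87) and Chaf1b (-0.52), without wild-type FBS replicate 2 for Ung (-0.83), Uhrf1 (-0.42), Chaf1b (-0.53) and Plk1 (-0.60), and without wild-type atRA+PKCi replicate 1 for Ung (-0.81), Uhrf1 (-0.41), Chaf1b (-0.40), Rrm1 (-0.34), Cdca8 (-0.52), Aurka (-0.59) and Plk1 (-0.54). They were lost without wild-type atRA+PKCi replicate 2 for Ung (-0.85), Uhrf1 (-0.55) and Ccne2 (-0.77), and without Rxra cKO FBS replicate 1 for Cdc6 (-0.96), Ung (-0.59), Uhrf1 (-0.34), Chaf1b (-0.37), Rrm1 (-0.35), Ccne2 (-0.73), Cdca8 (-0.47), Aurka (-0.53) and Plk1 (-0.54). They were also lost without Rxra cKO atRA+PKCi replicate 1 for Mcm7 (-0.46), Cdc6 (-0.96), Ung (-0.66), Uhrf1 (-0.48), Chaf1b (-0.39), Rrm1 (-0.37), Ccne2 (-0.76), Cdca8 (-0.50), Aurka (-0.68) and Plk1 (-0.58), and without Rxra cKO atRA+PKCi replicate 2 for Cdc6 (-1.08), Uhrf1 (-0.48), Chaf1b (-0.62), Ccne2 (-0.86), Aurka (-0.83) and Plk1 (-0.85). With the replicate block the calls of Chaf1b (-0.53) and Ung (-0.85) were lost.

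Other genes of the cell cycle were counted from a list of 148 genes that holds none of the members, of which 147 were tested. In wild-type, atRA+PKCi was called higher for 40 and lower for 33 of them, beside 27.2% and 26.6% of all tested genes, so the shares were near the background. In Rxra cKO it was called higher for 8 and lower for 109, beside 20.8% and 22.2%, and the interaction was negative for 97 and positive for 4, beside 11.3% and 13.3%. Among the 56 other genes of replication and DNA synthesis, 46 fell in Rxra cKO and 0 rose, with a median of -0.47. Among the 60 other genes of mitosis and cytokinesis, 51 fell and 2 rose, with a median of -0.98, and among the 31 regulators 12 fell and 6 rose, with a median of -0.21.

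Mybl2, Foxm1, Lin9 and Lin54, regulators of the mitotic wave, were lower in Rxra cKO atRA+PKCi than in Rxra cKO FBS. Mybl2 stood at 12.48 and 10.04 CPM in Rxra cKO FBS and at 3.85 and 3.949 CPM in Rxra cKO atRA+PKCi (-1.53, SE 0.16, adjusted p = 0.000102), with an interaction of -1.10 (adjusted p = 0.00671). Foxm1 stood at 24.06 and 20.15 CPM and at 10.29 and 10.54 CPM (-1.08, SE 0.137, adjusted p = 0.000304), with an interaction of -0.76. Lin9, a MuvB subunit, fell by 1.0 on the log2 scale with an interaction of -0.61. Lin54, the MuvB subunit that binds TTTGAA, fell in both genotypes (-1.0 in wild-type and -0.90 in Rxra cKO). Its interaction did not pass the test (0.11). The MuvB subunits Lin37 and Lin52, given as levels only, did not fall in Rxra cKO. Lin37 stood at 7.66 and 7.32 CPM in Rxra cKO FBS and at 8.826 and 9.015 CPM in Rxra cKO atRA+PKCi. Lin52 stood at 6.078 and 5.182 CPM and at 7.726 and 6.593 CPM in the same order. In wild-type, Mybl2 was called lower (-0.42) and Foxm1 was not called (-0.33). The call of Mybl2 in wild-type was lost without replicate 1 (-0.48) or 2 (-0.37) of wild-type FBS, without replicate 2 of wild-type atRA+PKCi (-0.26), and without replicate 1 (-0.44) or 2 (-0.43) of Rxra cKO atRA+PKCi. Foxm1 was called in wild-type without wild-type FBS replicate 2 (-0.49). The interaction of Foxm1 was lost without replicate 1 of wild-type atRA+PKCi (-0.64) or of Rxra cKO FBS (-0.58) and without replicate 1 (-0.70) or 2 (-0.77) of Rxra cKO atRA+PKCi. That of Lin9 was lost without replicate 1 of Rxra cKO atRA+PKCi (-0.48).

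The E2F factors did not move as a group. E2f7 and E2f8, which act as repressors, fell in both genotypes (-1.16 and -0.59 in wild-type, -1.33 and -1.29 in Rxra cKO). E2f1, an activator, was called lower in wild-type (-0.34) and was not called in Rxra cKO (-0.21). E2f3 was not called in either genotype (0.13 and -0.12). E2f4, the E2F of the DREAM complex, was called lower in wild-type (-0.33) and not in Rxra cKO (-0.18), and E2f6 likewise (-0.24 and -0.21). E2f2 was low in all libraries, at 2.847 and 2.318 CPM in wild-type FBS and at most 0.719 CPM elsewhere (wild-type medium effect -1.94). E2f5 rose in wild-type from 6.241 and 6.606 CPM to 13.86 and 12.77 CPM (1.05, SE 0.113, adjusted p = 6.96e-05) and was not called in Rxra cKO (-0.23), with an interaction of -1.28. Calls in wild-type were lost without wild-type atRA+PKCi replicate 1 for E2f1 (-0.29) and E2f6 (-0.30), without wild-type atRA+PKCi replicate 2 for E2f4 (-0.29) and E2f6 (-0.21), and for E2f6 also without replicate 2 of wild-type FBS (-0.17) and replicate 1 (-0.26) or 2 (-0.25) of Rxra cKO atRA+PKCi.

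Of the RB family, Rbl2, a partner in the DREAM complex, rose in both genotypes by similar amounts (0.57 in wild-type and 0.55 in Rxra cKO). Rbl1 fell in Rxra cKO from 47.25 and 38.74 CPM to 29.46 and 28.72 CPM (-0.56, SE 0.0959, adjusted p = 0.00168) and did not pass the test in wild-type (0.09), with an interaction of -0.65. Rb1 rose slightly in Rxra cKO (0.28, adjusted p = 0.0297), a call that was lost without replicate 1 (0.32) or 2 (0.26) of Rxra cKO FBS and without replicate 1 (0.23) or 2 (0.35) of Rxra cKO atRA+PKCi.

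The other genes that the naming rule picked were the extremes of the wider list among called genes with a mean of at least 50 counts, which leaves out E2f2. In wild-type the largest falls were those of E2f7, Lin54 and Tk1, the thymidine kinase of S phase (-0.87), and the largest rises those of Psrc1, a spindle protein (3.40), of Tfdp2, a partner of E2F factors (1.99), and of Ckap2, a microtubule protein of mitosis (1.16). In Rxra cKO the largest falls were those of Cep55, which acts at abscission (-2.79), of Nuf2, a kinetochore subunit (-1.65), and of Pbk, a mitotic kinase (-1.60). The largest rises there were those of Psrc1 (1.63), Ccnd2, a D-type cyclin (1.61), and Tfdp2 (1.03). Ccnd2 stood at 350.1 and 299.5 CPM in Rxra cKO FBS and 998.4 and 983.7 CPM in Rxra cKO atRA+PKCi, and at 325.7 and 295.2 CPM and 583.2 and 583.5 CPM in wild-type. Psrc1 stood at 1.825 and 1.082 CPM in wild-type FBS and 15.49 and 15.49 CPM in wild-type atRA+PKCi.

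The hashtag cultures compared BMP2/4 with B-27, Rspo+BMP2/4 with BMP2/4, and Rspo+BMP2/4+RARi with Rspo+BMP2/4. The first contrast covers atRA+PKCi and BMP2/4 together, since B-27 cultures lacked both, and the other 2 were made within atRA+PKCi. Only 222 and 78 cells of the 2 mice passed the filters with 1 hashtag. FBS cultures had 0 cells, atRA+PKCi cultures 2 and 1 cells, B-27 cultures 5 and 10, Rspo 5 and 6, BMP2/4 113 and 13, Rspo+BMP2/4 92 and 27, and Rspo+BMP2/4+RARi 5 and 21. UMIs were summed per mouse and culture and 3 contrasts were tested with edgeR's quasi-likelihood test, with a call at adjusted p under 0.01 and a log2 fold change over 1 in either direction. Of 40 members, 9 passed the filter on low counts (Mcm4, Mcm7, Pcna, Hells, Rrm1, Tyms, Top2a, Mki67 and Ube2c).

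No member was called in any of the 3 contrasts. In simulated data for BMP2/4 versus B-27, 39.6% of changes of 2 and 83.3% of changes of 3 on the log2 scale were recovered. A change of the size seen for these members could therefore be missed. Between BMP2/4 and B-27, the unadjusted p was under 0.05 for 1 of 9 members, Mki67 (-1.83), beside 1507 of 6265 tested genes. The adjusted p of Mki67 was 0.192 in edgeR's quasi-likelihood test. At the threshold of a call, 0.431% of all tested genes were higher and 5.28% were lower. Between Rspo+BMP2/4 and BMP2/4, 0 of 9 members had an unadjusted p under 0.05, beside 44 of 6265 tested genes. In that contrast 0.0% of all tested genes were called in either direction, and the members' log2 fold changes lay between -0.48 and 0.47. Between Rspo+BMP2/4+RARi and Rspo+BMP2/4, 3 of 9 members had an unadjusted p under 0.05, beside 232 of 6265 tested genes. They were Top2a (1.82), Mki67 (2.08) and Ube2c (1.08), all with an adjusted p of 0.959 in the same test. Again 0.0% of all tested genes were called. DESeq2 also called 0 members in the 3 contrasts.

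The values with RARi differed between the mice. The mitosis genes stood at 104 CPM in mouse 1 (10 UMIs in 5 cells, exact 95% interval 49.88 to 191.3) and at 599.1 in mouse 2 (361 UMIs in 21 cells, 538.9 to 664.1), against 155.5 and 118 in Rspo+BMP2/4. In mouse 2, 265 of the 361 UMIs (73.4%) came from 1 cell and 79.5% from 3 cells. Top2a had 1 and 104 UMIs with RARi. Without Rspo+BMP2/4+RARi replicate 2 its log2 fold change was -2.15 (adjusted p = 0.266) and without Rspo+BMP2/4+RARi replicate 1 it was 2.42 (adjusted p = 0.0417), so the direction rested on 1 mouse. In B-27 cultures, too, 66.7% and 69.3% of the mitosis UMIs came from 1 cell of each mouse. The replication genes stood at 374.5 and 229 CPM with RARi, 223.8 and 202.3 in Rspo+BMP2/4, 167.5 and 213.4 in BMP2/4, and 217 and 391.5 in B-27. The intervals cover counting error only.

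In anagen skin, classes of cells were rebuilt by clustering 14458 and 13915 cells of the 2 mice, less 833 and 307 doublets called by Scrublet. The members, the wider list and 80 histone genes were left out of the genes used for clustering, and classes were named by marker lists that hold none of them. Genes that vary together with the members were not left out. Of the 2 clusters that make up the hair matrix-like class, one had Shh among its leading genes, and the other had Stmn1, Pclaf and Hmgb2, genes known from cycling cells, and none of the 7 matrix markers. Fibroblast-like, immune-like, endothelium-like and melanocyte-like cells were present although the sort should deplete them, 4873 and 4078 cells in the fibroblast-like class alone, and 3 of its clusters came mostly from 1 mouse. The mice shared 62 barcodes. Levels are CPM of the UMIs of a class, and they are given as descriptions, with no test between classes.

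The members were highest in the classes at the base of the follicle. In hair matrix-like cells (1692 and 1024 cells), the replication genes summed to 2145 and 2058 CPM and the mitosis genes to 4127 and 3812. In inner root sheath-like cells (1159 and 610 cells) they summed to 1483 and 1628 and to 3894 and 3498, so the mitosis sums of the classes overlapped between mice while the replication sums did not. Hair shaft medulla-like cells had 872.9 and 962.2 for replication and 2333 and 1757 for mitosis, and cortex and cuticle-like cells 608.1 and 552.8 and 1756 and 1332. With the members kept among the genes for clustering, the mitosis sum of the cortex and cuticle-like class was 533.2 and 814.7, below that of the outer root sheath-like class (892.7 and 1129) and not above it. Outer root sheath-like cells (908 and 1197 cells) had 565.8 and 547.8 for replication and 879.8 and 1115 for mitosis. The replication sums of the cortex and cuticle, outer root sheath and suprabasal epidermis-like classes (511.3 and 601.2) overlapped.

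At the low end were fibroblast-like cells, with 225.2 and 236.5 for replication and 260.1 and 415 for mitosis, and dermal papilla-like cells, with 221.2 and 260.9 and 301.1 and 368.4. These 2 classes overlapped in both lists. With predicted doublets kept they did not, since dermal papilla-like cells then had 321.4 and 322.2 for replication and 608 and 549.4 for mitosis, against 226.5 and 233.4 and 276.9 and 404.4 in fibroblast-like cells. With each cell thinned to 3000 UMIs, the share with 2 or more UMIs of replication genes was 91.7% and 91.4% in hair matrix-like, 67.0% and 68.0% in inner root sheath-like, 31.7% and 33.6% in outer root sheath-like and 12.0% and 15.4% in dermal papilla-like cells. Dermal papilla cells seldom divide, so their share stands here for the background. Free RNA was not removed or estimated, and a share near that background, such as 14.2% and 13.6% in fibroblast-like cells, is not read as expression. Without thinning the shares were 98.5% and 99.0%, 86.5% and 88.9%, 56.8% and 68.8%, and 25.5% and 45.0%, at median depths of 11680.5 and 15069, 10466 and 13238.5, 6847.5 and 8094, and 4547 and 6858 UMIs. For mitosis genes the thinned shares were 87.5% and 84.7%, 73.6% and 74.7%, 26.2% and 33.5%, and 18.1% and 20.2% in the same order.

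**Figure D4:**
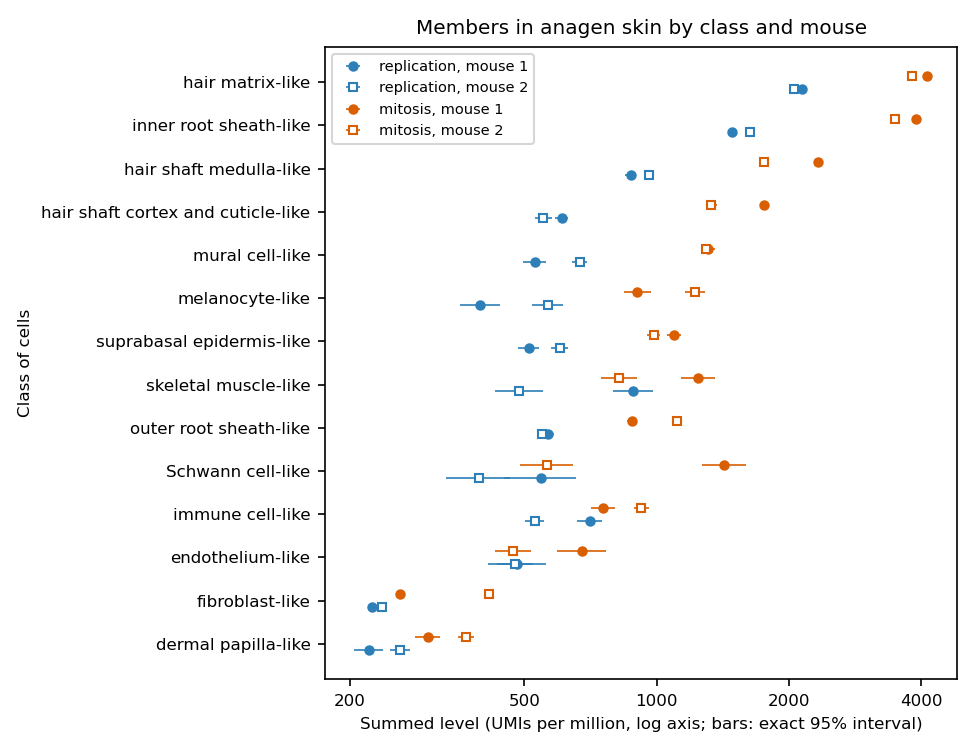
Summed level of the replication and the mitosis genes, in CPM, on a log axis, in each class of cells of anagen skin, with one point per mouse and bars for the exact 95% interval of the count. Hair matrix-like cells (2145 and 2058 for replication, 4127 and 3812 for mitosis) and inner root sheath-like cells are highest, and fibroblast-like and dermal papilla-like cells are lowest.

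Single members followed this order, with a difference between the lists. All 19 replication and all 21 mitosis genes were higher in hair matrix-like than in outer root sheath-like cells in both mice, by 2.14-fold to 5.74-fold and by 2.38-fold to 6.13-fold. Hair matrix-like cells had the highest level of all named classes in both mice for 16 of 19 replication genes and for 10 of 21 mitosis genes. The exceptions in replication were Tyms, Ccne1 and Ccne2. Inner root sheath-like cells were above hair matrix-like cells in both mice for 0 of 19 replication and 4 of 21 mitosis genes (Cdk1, Ube2c, Nusap1 and, by 198.6 against 198.5 in mouse 1 and 184.4 against 181.4 in mouse 2, Cdca8). Their level relative to the matrix had a median of 0.656 and 0.751 for replication and 0.956 and 0.943 for mitosis.

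Mcm3 stood at 117.8 and 111.5 CPM in hair matrix-like, 67.62 and 77.05 in inner root sheath-like and 20.51 and 23.98 in outer root sheath-like cells. Hells stood at 187.7 and 204, 97.25 and 136.8, and 42.1 and 63.57 in the same classes. Top2a had the highest level of the list in hair matrix-like cells, at 873.6 and 778.6, against 744.4 and 641.2 and 166.2 and 211.9. Nusap1, which binds spindle microtubules, was higher in inner root sheath-like (183.2 and 159.6) than in hair matrix-like cells (152.1 and 145.1), and so was Cdk1 (199.2 and 175.2 against 191.9 and 148.9). Mki67 stood at 464.1 and 516.7, 402.6 and 436.3, and 102.4 and 146.3 in the 3 classes and at 28.75 and 47.3 in fibroblast-like cells. Since these are counts at the 3' end of transcripts, they are not divided by length.

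The members could also be set against each other within single cells. Cells were thinned to 3000 UMIs and, for each member in turn, sorted by the UMIs of the other members into those with replication genes only (4 or more UMIs of replication and at most 1 of mitosis genes), mitosis genes only, both, or neither. This gave 360 to 544 and 304 to 483 cells with replication genes only, 460 to 660 and 484 to 640 with mitosis genes only, 1494 to 1678 and 1115 to 1277 with both, and 6788 to 7075 and 6748 to 7014 with neither. In both mice all 19 replication genes were higher in the cells with replication genes only, by 1.13-fold to 32.9-fold, and all 21 mitosis genes were higher in the cells with mitosis genes only, by 3.39-fold to 47.9-fold. Each member was left out of the sorting of its own cells, and these ratios are descriptions over cells of 2 mice.

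Ung had the sharpest separation of the replication genes, at 85.18 and 71.5 CPM in cells with replication genes only and 2.589 and 4.274 in cells with mitosis genes only. Ccne2 and Cdc6, which act before or at the start of S phase, had ratios of 8.65 and 6.22 and of 7.02 and 9.42. Rrm1 and Tyms had the smallest ratios, at 1.21 and 1.16 and at 1.13 and 1.34, and were highest in cells with both kinds of genes. Rrm2 lay between, at 1.56 and 2.14. Nucleotide supply genes therefore ran further into the cells with mitosis genes than the licensing genes did.

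Among mitosis genes Plk1 stood at 73.93 and 60.1 CPM in cells with mitosis genes only and 1.543 and 2.703 in cells with replication genes only, and Ube2c at 624.9 and 395.7 and 17.94 and 11.46. Both were at low levels in the cells with replication genes only. Top2a and Mki67 had small ratios, of 4.67 and 4.11 and of 4.77 and 3.39. Top2a stood at 670.2 and 651.8 in cells with mitosis genes only, 1056 and 935.7 in cells with both and 143.4 and 158.6 in cells with replication genes only, so it was not confined to the cells with mitosis genes.

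**Figure D5:**
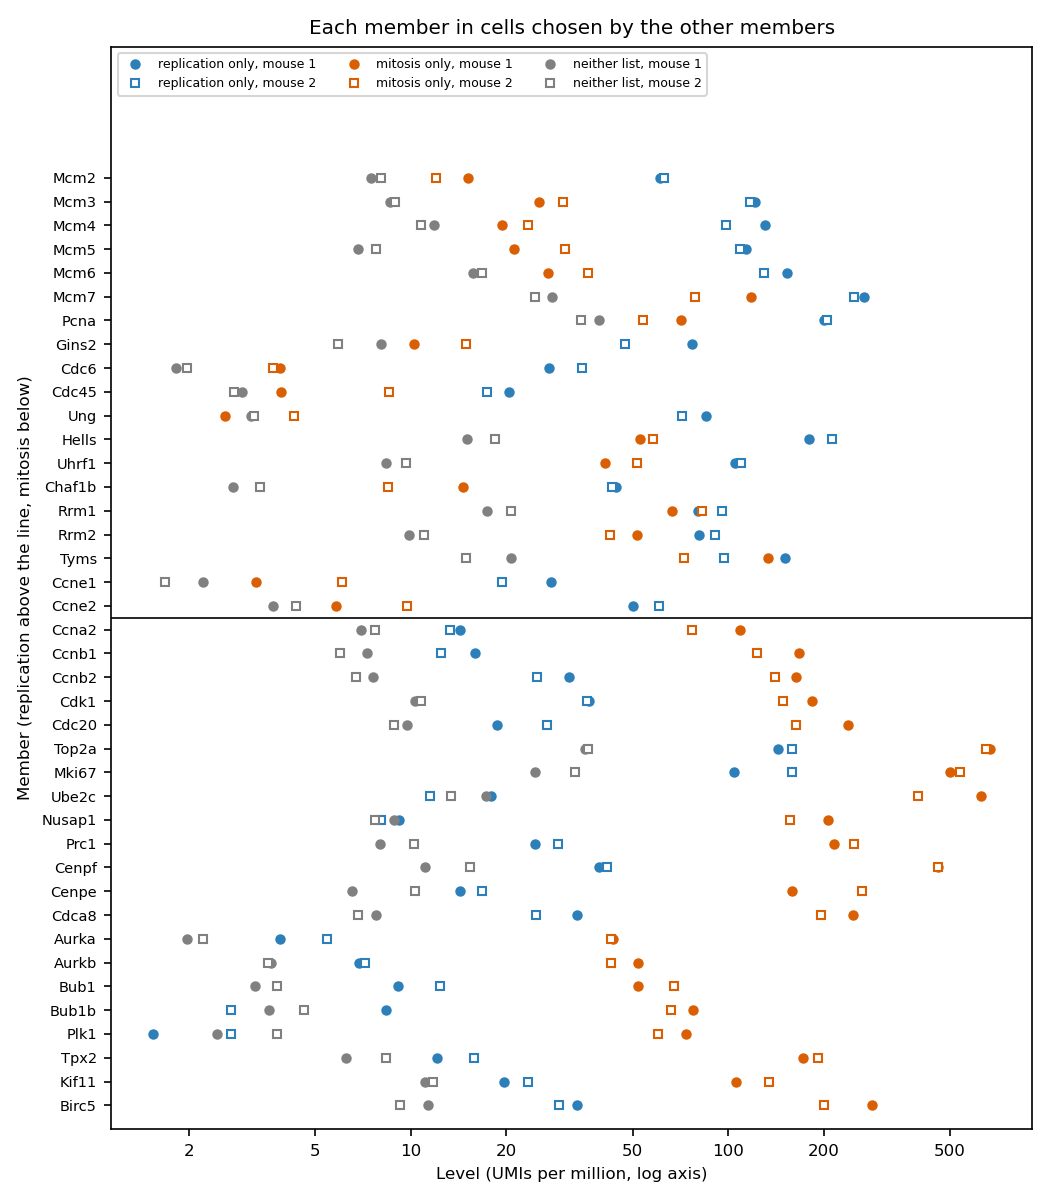
Level of each member, in CPM on a log axis, in cells of anagen skin with replication genes only, mitosis genes only or neither, by the UMIs of the other members, with one row per gene and one point per mouse. Each member lies further right in the cells of its own list, and the points of both kinds of cells lie close together for Rrm1 and Tyms.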

How the data were processed

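The authors quantified bulk RNA-seq with Salmon 1.4.0 and deposited estimated counts per gene, which were rounded and used for all tests, and a signal table of normalized counts, used only for alternatives. For single cells they deposited UMI counts from Cell Ranger (7.0.1 per the labels) with the hashtag counts in the culture matrices. Their removal of free RNA and doublets is not in these matrices. ATAC-seq and CUT&RUN samples were not used here.

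The 8 bulk libraries were fitted together in edgeR 4.0.16 (R 4.3.3) with TMM scaling, filterByExpr and the quasi-likelihood test with Benjamini-Hochberg adjustment at 0.05, without a block. In simulated data for the wild-type medium effect, 69.1% of changes of 1 and 83.7% of changes of 2 on the log2 scale were recovered over 15437 genes. Per the labels the same mouse number marks 1 mouse in both media of a genotype, and deviations of its libraries correlated at 0.0668 (wild-type) and -0.0188 (Rxra cKO) over 15965 genes. DESeq2 1.42.0, limma 3.58.1, the block, other filters, a stricter threshold and leaving out each library were tried.

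Cells were kept with at least 500 genes and 1000 UMIs and a mitochondrial share below 10%. The hashtag of each cell was called with Seurat 5.3.0, and culture sums of 5 or more cells were tested. Skin cells were clustered with scanpy 1.11.5 (30 principal components, 30 neighbors, resolution 1) after Scrublet. A cluster took a name at a marker score of at least 1 with 3 or more markers in 10% of its cells. It stayed unnamed where its leading genes held more markers of another list than of its best list. The same held for a cluster of low depth with no marker of its best list among them. Named were all members, E2F and RB genes, Lin9 and Lin54 of MuvB, Mybl2, Foxm1 and Rxra. Lin37 and Lin52 of MuvB are given as levels only. Also named were the 3 called genes of the wider list with the largest rise and fall per medium effect at a mean of 50 counts. Members and lists were chosen with earlier results of these data known.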

Additional observations from a re-analysis of the deposited data

Results flagged for a closer look

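The results listed here are those in which the medium effect in Rxra cKO HFSCs differed from that in wild-type HFSCs, by the interaction term of edgeR's quasi-likelihood test at an adjusted p under 0.05. Each value is the log2 effect of atRA+PKCi in Rxra cKO minus that in wild-type. With 2 libraries a group, a check for a library standing apart from its group was not possible.

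Among mitosis genes, which act from the entry into mitosis to cytokinesis, the difference was negative for Cenpe (-1.61), Bub1 (-1.30), Cenpf (-1.25), Mki67 (-1.23), Ccnb1 (-1.17), Nusap1 (-1.10), Kif11 (-1.09), Ube2c (-1.02), Bub1b (-1.0), Cdc20 (-1.0), Ccna2 (-0.96), Birc5 (-0.95), Top2a (-0.93), Tpx2 (-0.93), Ccnb2 (-0.90), Prc1 (-0.85), Cdk1 (-0.82), Aurka (-0.78), Plk1 (-0.73) and Cdca8 (-0.61). Among replication genes it was negative for Hells (-1.15), Tyms (-1.06), Cdc6 (-1.05), Cdc45 (-1.03), Mcm6 (-0.86), Ung (-0.85), Ccne2 (-0.83), Mcm3 (-0.69), Mcm5 (-0.66), Mcm7 (-0.56), Chaf1b (-0.53), Uhrf1 (-0.50) and Rrm1 (-0.45). It was positive for the S phase cyclin Ccne1 (0.74).

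Among the regulators and the other named genes, the difference was negative for Cep55 (-2.68), Psrc1 (-1.77), Ckap2 (-1.31), E2f5 (-1.28), Mybl2 (-1.10), Pbk (-1.07), Nuf2 (-1.06), Tfdp2 (-0.96), Foxm1 (-0.76), E2f8 (-0.70), Rbl1 (-0.65) and Lin9 (-0.61). It was positive for Rxra (0.51), Ccnd2 (0.70) and E2f2 (1.88). E2f2 stood at no more than 2.85 CPM in any library, and its call was lost without replicate 1 of wild-type FBS (1.72), replicate 1 (1.86) or 2 (1.94) of wild-type atRA+PKCi, replicate 2 of Rxra cKO FBS (1.58), or replicate 1 (2.01) or 2 (1.79) of Rxra cKO atRA+PKCi. The call of E2f8 was lost without replicate 1 of wild-type atRA+PKCi (-0.53) or of Rxra cKO FBS (-0.63), or replicate 1 (-0.63) or 2 (-0.72) of Rxra cKO atRA+PKCi. With DESeq2 the calls of Lin9 and E2f2 were lost.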

How the results depend on the processing

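For the counts of called members, the stricter threshold (adjusted p under 0.01 and a log2 fold change over 1 in either direction) left 1 higher and 0 lower for the wild-type medium effect, 19 lower for the Rxra cKO medium effect, 0 higher and 0 lower between genotypes in FBS, 0 higher and 8 lower between genotypes in atRA+PKCi, and 0 higher and 12 lower for the interaction. These counts and those that follow are given without the share of all tested genes at the same setting. They show only how far the member counts moved. With limma on the deposited normalized counts, 8 were lower for the wild-type medium effect with a pseudocount of 1 and 8 with 0.5. Between genotypes in atRA+PKCi, 2 were higher with no filter on low counts and 2 with only the 4 libraries compared. Over the fits that each left out 1 library, the counts of higher and lower members were 6 to 8 and 9 to 16 for the wild-type medium effect, 0 and 29 to 34 for the Rxra cKO medium effect, 14 to 19 and 3 to 5 between genotypes in FBS, 1 to 2 and 20 to 30 between genotypes in atRA+PKCi, and 1 and 23 to 35 for the interaction. In the hashtag cultures they were 0 in each such fit, which were chosen after seeing the data. Cenpf reversed between genotypes in FBS with limma on the deposited normalized counts, from 0.25 to -0.24 with either pseudocount (-0.2445 with 1 and -0.2446 with 0.5), and the cause was not tested. With the replicate block, 8 members were higher and 14 lower for the wild-type medium effect (Gins2, Uhrf1, Aurka and Foxm1 gained a call, Bub1 and E2f6 lost one), 18 and 5 between genotypes in FBS, and 1 and 31 for the interaction, and the block changed no other count of called members. Of 3160 values of single members under all alternatives, 2798 kept their direction and side of the threshold, 313 lost and 47 gained the call, and 2 reversed.

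In anagen skin, summed levels (mean of the mice, CPM) that moved by more than the spread between the mice were the following. Requiring 1000 genes and under 5% mitochondrial UMIs per cell gave 245.6 for replication in fibroblast-like, 1660 in inner root sheath-like, 854 in medulla-like, 797.5 in cortex and cuticle-like and 897 in Schwann cell-like cells, and for mitosis 1978 in cortex and cuticle-like and 1559 in mural cell-like cells. A clustering resolution of 1.5 gave 2037 for replication in hair matrix-like, 851 in medulla-like and 752.6 in cortex and cuticle-like cells, and 1904 for mitosis in the latter. Keeping the members and the wider list among the genes for clustering gave 2020 for replication in hair matrix-like, 1025 in medulla-like and 465.9 in cortex and cuticle-like cells, and 674 for mitosis in the latter (1544 otherwise). Keeping predicted doublets gave for replication 1051 in medulla-like, 540.5 in cortex and cuticle-like, 580.4 in outer root sheath-like, 321.8 in dermal papilla-like and 528.1 in endothelium-like cells, and for mitosis 578.7 in dermal papilla-like (334.8 otherwise), 726 in endothelium-like, 1108 in immune cell-like and 1354 in mural cell-like cells. Few cells limit the culture contrasts and 2 mice the values in skin.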

Other observations

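Unnamed clusters of anagen skin also held members at high levels. A cluster led by Krt15, Fgf5 and Lgr5 (373 and 343 cells of the 2 mice) had replication genes at 1277 and 1317 CPM and mitosis genes at 1746 and 1779, between the outer root sheath-like and the hair matrix-like classes in both lists. Another, led by Nhs, Cdh6, Robo1 and Cux1 (255 and 615 cells), had replication genes at 1358 and 1498 and mitosis genes at 2997 and 3115. A cluster of low depth, led by Cfd, Car3 and Scd1 (116 and 647 cells), had replication genes at 1326 and 1023 and mitosis genes at 2485 and 1958. Its median depth was 2010.5 and 1669 UMIs, and the part of free RNA in its levels was not tested. The cluster led by Krt15 scored 0.834 for its best list, the outer root sheath, below the minimum of 1. The cluster led by Nhs scored 2.365 for the inner root sheath and that led by Cfd 3.584 for adipocytes. Both stayed unnamed by the other conditions of the naming rule, so the inner root sheath-like class leaves out the cluster led by Nhs. The leading genes of these clusters were read after the values were known.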
